A study of Homo sapiens with 6 samples.

Results

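The genes described here are the ISG15 conjugation system and a few interferon-induced genes usually described with it. The members were ISG15, UBA7, UBE2L6, HERC5, HERC6, USP18, ISG20, SAMD9, SAMD9L and CMPK2, and their values were taken from every probe set annotated to 1 of these genes alone. That gave 14 probe sets for 9 of the 10 genes, out of 19775 genes with such a probe set on the array. The 2 probe sets of UBA7 are also annotated to a second gene, so UBA7 was not measured here. Gene expression was measured on 6 arrays of total RNA from NCI-H292, an established lung carcinoma line of mucoepidermoid type. The CT45A1 overexpression group had 3 arrays and stably carried CT45A1 fused to Venus, a fluorescent protein. The CT45A1 negative group had 3 arrays and stably carried Venus without CT45A1. CT45A1 belongs to a family of cancer/testis antigens, and the labels do not say whether either line was a clone or a pool, or whether replicates were separate cultures. Every p-value below therefore reflects array-to-array spread alone, which may be technical.

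ISG15 is a ubiquitin-like protein that cells induce strongly on interferon stimulation and attach to other proteins. Attachment runs through a relay of enzymes: the activating enzyme UBA7 (also named UBE1L) passes ISG15 to the conjugating enzyme UBE2L6, and the ligase HERC5 transfers it to targets in human cells. HERC6, a close relative of HERC5, is the main ISG15 ligase in mouse, and USP18 removes ISG15 from proteins and also restrains signalling from the type I interferon receptor. The remaining members act outside this relay. ISG20 is an interferon-induced exonuclease, SAMD9 and SAMD9L are paralogous antiviral and growth-restraining proteins, and CMPK2 is a mitochondrial nucleotide kinase.

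Interferon-induced genes often carry an interferon-stimulated response element, so the promoters of the members were searched for its core (GAAA, any 2 bases, GAAA) on both strands. The windows run from 250 bases before to 50 bases after the annotated start, in RefSeq's GRCh38.p14 annotation, and 8 of the 10 member genes had one, CMPK2 with 3 windows and UBE2L6 with 2. The core was found for 4 of these 8 genes, ISG15, HERC5, SAMD9 and ISG20, and in 4.38% of all 27305 genes with a window (3.57% of all windows). Of the 28 genes with a window among 36 interferon-stimulated effectors outside the member list, 22 held it. ISG15 had 2 overlapping matches, from 113 to 98 bases before the start, and HERC5 had 3, of which 2 overlap. A second interferon motif, the GAS core (TTC, any 3 bases, GAA), was searched in the same way and was found in 0 of the 8 member genes, in 11 of the 28 effectors and in 9.38% of all genes. Only exact matches were counted, so a window with none may still hold a near match. The 5 windows below are shown because they hold the matches, or, for SAMD9L, because it is the paralogue and neighbour of SAMD9 and holds none. They are printed 5′ to 3′ on the gene's strand with the matches to that core or its reverse complement in capitals. The windows are chr1:1013247-1013546 on the plus strand for ISG15, chr4:88456869-88457168 on the plus strand for HERC5, chr15:88638766-88639065 on the plus strand for ISG20, chr7:93117930-93118229 on the minus strand for SAMD9 and chr7:93148336-93148635 on the minus strand for SAMD9L.
ISG15: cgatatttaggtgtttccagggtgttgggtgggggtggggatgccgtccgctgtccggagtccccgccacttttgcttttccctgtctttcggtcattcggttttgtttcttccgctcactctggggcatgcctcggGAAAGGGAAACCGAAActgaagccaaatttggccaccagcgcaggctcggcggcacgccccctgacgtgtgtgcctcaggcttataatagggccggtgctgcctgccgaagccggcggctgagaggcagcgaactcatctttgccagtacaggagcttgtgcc
HERC5: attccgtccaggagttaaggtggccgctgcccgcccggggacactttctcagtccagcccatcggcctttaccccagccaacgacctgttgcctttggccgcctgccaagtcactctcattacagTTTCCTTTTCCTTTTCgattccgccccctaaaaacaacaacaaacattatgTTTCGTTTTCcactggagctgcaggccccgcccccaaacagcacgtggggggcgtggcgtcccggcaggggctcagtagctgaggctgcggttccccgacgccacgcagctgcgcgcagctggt
ISG20: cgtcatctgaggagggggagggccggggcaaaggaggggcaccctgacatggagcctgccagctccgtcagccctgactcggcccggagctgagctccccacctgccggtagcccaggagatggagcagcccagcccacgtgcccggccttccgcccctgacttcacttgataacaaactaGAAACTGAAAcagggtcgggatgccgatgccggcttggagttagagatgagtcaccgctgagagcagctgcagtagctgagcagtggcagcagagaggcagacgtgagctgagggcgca
SAMD9: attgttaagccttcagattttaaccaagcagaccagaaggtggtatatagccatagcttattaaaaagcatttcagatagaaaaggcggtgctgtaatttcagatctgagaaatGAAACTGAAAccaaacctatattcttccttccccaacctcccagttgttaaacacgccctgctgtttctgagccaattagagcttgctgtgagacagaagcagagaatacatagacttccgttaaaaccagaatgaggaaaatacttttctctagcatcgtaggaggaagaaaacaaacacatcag
SAMD9L: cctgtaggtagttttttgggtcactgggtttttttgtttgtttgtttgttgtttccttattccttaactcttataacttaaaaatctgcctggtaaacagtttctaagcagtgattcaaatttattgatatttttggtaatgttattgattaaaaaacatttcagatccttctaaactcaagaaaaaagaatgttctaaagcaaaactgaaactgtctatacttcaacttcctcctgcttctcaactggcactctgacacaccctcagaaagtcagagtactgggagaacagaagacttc

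**Figure D1:**
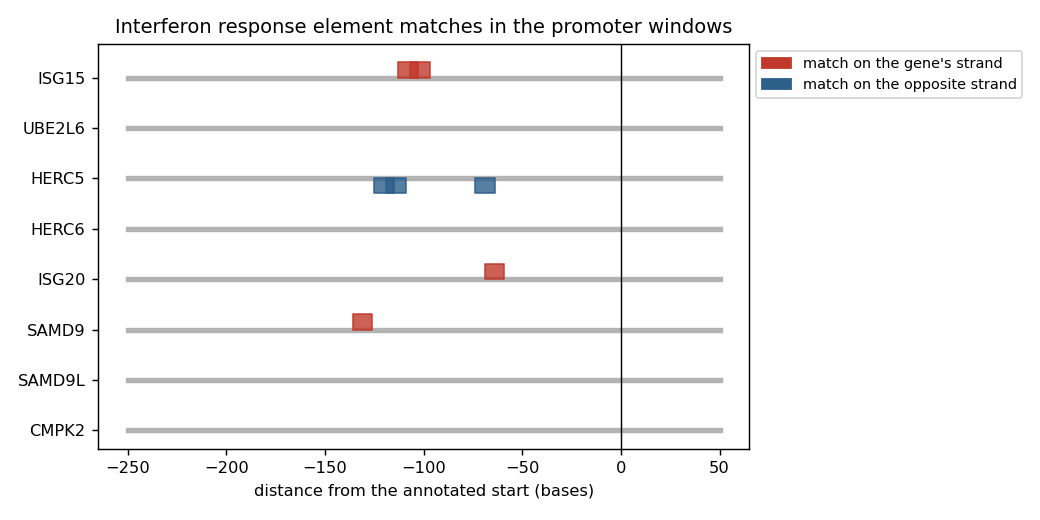
Matches to the interferon response element core in the promoter windows of the 8 member genes that had one, by distance from the annotated start in bases (horizontal axis), with red boxes above the line for the gene's strand and blue boxes below it for the opposite strand. ISG15, HERC5, ISG20 and SAMD9 hold matches between 136 and 60 bases before the start, and the windows of UBE2L6, HERC6, SAMD9L and CMPK2 hold none.

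Each value is a MAS5 signal, an intensity on a linear scale that the authors had scaled to a common trimmed mean per array. Array medians were 79.2 to 83.3 in the overexpression group and 72.6 to 75.6 in the negative group, a mean difference of 0.145 on the log2 scale. The ratio of 3′ to 5′ signal for actin, a sign of RNA integrity and labelling length, was 1.42 to 1.55 on the overexpression arrays and 1.64 to 1.91 on the negative ones, and for GAPDH it was 0.969 to 1.04 and 1.05 to 1.18. As a check of the labels, the brighter of the 2 CT45 probe sets, each annotated to 9 CT45 genes, gave 445 to 700.1 with CT45A1 and 1.95 to 23.1 without it. Of 9 epithelial markers all 9 were bright enough to test, and KRT18, a simple epithelial keratin, fell by 0.25 on the log2 scale (limma adjusted p = 0.0367) while the other 8 did not pass. Of the leukocyte markers 2 of the 12 on the array were, with a summed signal of 530.5 to 583.8 with CT45A1 and 363.3 to 648.4 without it. Of the fibroblast and endothelial markers 2 of 8 were, with summed signals of 509 to 589.9 with CT45A1 and 354.7 to 424 without it, and these 2, CDH5 and PECAM1, differed by 0.79 and 0.32 on the log2 scale (limma adjusted p = 0.115 and 0.401). No marker of these lists was listed at 0 and none of the 4 tested ones passed. Their part in the results below was not tested.

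The comparison asked which members differed between cells with CT45A1 and cells with the vector. ISG15 and 2 enzymes of its relay, UBE2L6 and HERC5, rose with CT45A1, as did SAMD9L and CMPK2, by 1.39-fold to 2.05-fold. HERC6, ISG20 and SAMD9 differed in the same direction without passing the test, and USP18 was too dim to test. In numbers, 12 of the 14 probe sets, from 8 genes, exceeded the array median on at least 3 arrays and were tested, 5 rose and none fell. A probe set was called at an adjusted p under 0.05 in limma, with Benjamini-Hochberg adjustment over all 27618 probe sets tested, of which 1.89% rose and 1.34% fell. The 5 calls were 1 probe set each of ISG15, UBE2L6, HERC5, SAMD9L and CMPK2. None of the 5 passed when limma was run with no variance trend, where 4 of all 27618 probe sets passed. None passed with the actin ratio, which separates the groups, added to the fit, where 702 of all probe sets passed. With 1 probe set per gene and adjustment over 11895 genes, the same 5 genes passed, where 1.94% of all genes rose and 1.89% fell. The median difference of the 12 probe sets was 0.56 on the log2 scale, against 0.033 over all probe sets tested. All 12 differences lay above 0, and 11 of the 12 had their 3 overexpression arrays above the 3 negative ones, as did 15.2% of all probe sets tested. The members were chosen with earlier results of these data known, and the effect of that choice on these contrasts was not tested. Since a filter on signal can favour probe sets that are bright in 1 group, each of the 12 was checked, and each exceeded the array median on all 3 arrays of both groups.

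**Figure D2:**
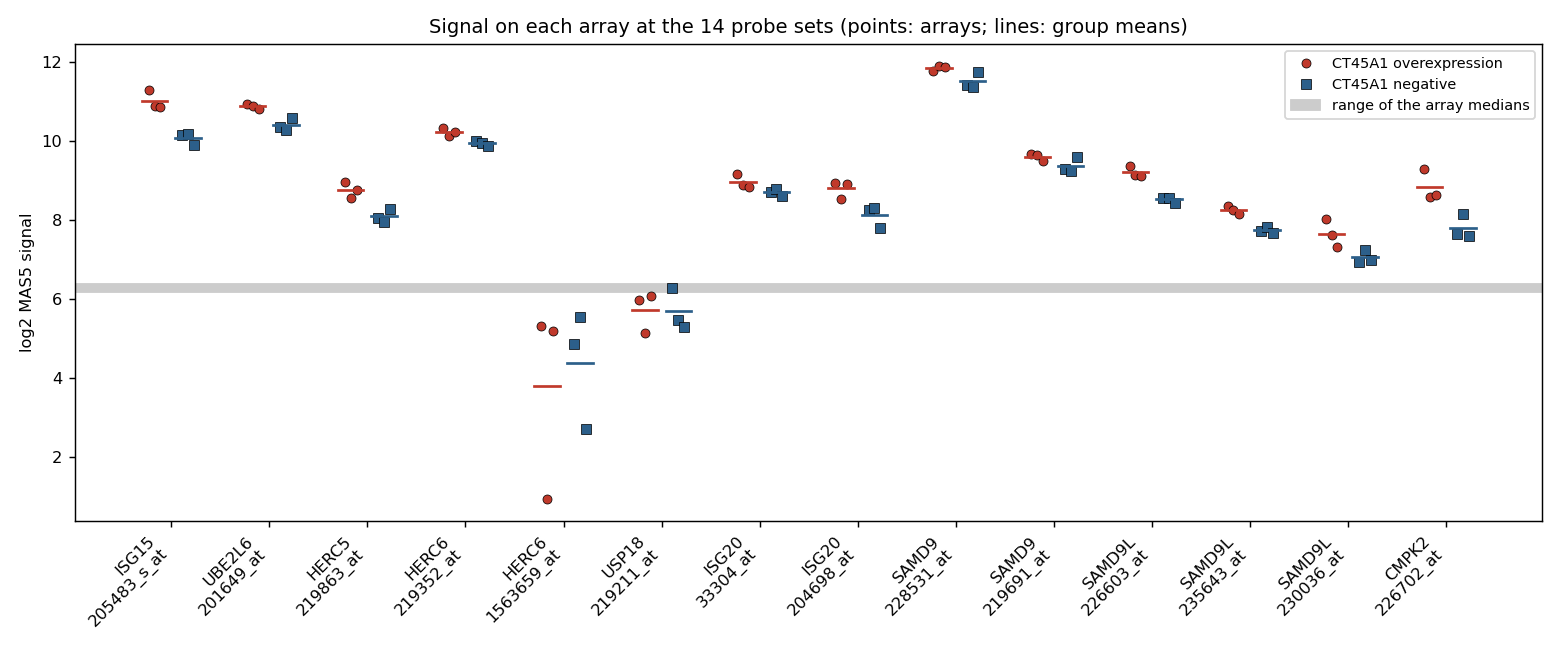
Log2 MAS5 signal (vertical axis) on each array at the 14 probe sets, with CT45A1 overexpression in red circles to the left of CT45A1 negative in blue squares, lines for group means and a grey band for the range of the array medians. The groups are apart at 11 probe sets, and USP18 and the second HERC6 probe set lie around or below the grey band in both groups.

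ISG15, the modifier itself, had signals of 2546, 1907 and 1885 in overexpression cells, against 1153, 1166 and 959 in negative cells. Every overexpression array lay well above every negative array. The mean log2 signal was 11.03 ± 0.25 with CT45A1 and 10.09 ± 0.16 without it (SD, n = 3 each), a difference of 0.94 (SE 0.13) or 1.92-fold, with a limma adjusted p of 0.00621. It ranked 444th of the 27618 probe sets by size of increase. This probe set ends in _s_at, which means that its probes can match more than 1 transcript. ISG15 passed with each of the 6 arrays left out in turn, with an adjusted p of up to 0.0287. With the actin ratio as a covariate its difference was 0.51 and its adjusted p 0.151.

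UBE2L6, the conjugating enzyme, had signals of 1993, 1906 and 1797 in overexpression cells, against 1317, 1256 and 1532 in negative cells. The groups did not overlap, and negative replicate 3 lay closest to the overexpression arrays. UBE2L6 rose by 0.48 on the log2 scale (SE 0.09, limma adjusted p = 0.0267), from 3 arrays per group and at 1.39-fold the smallest of the 5 increases. Without negative replicate 3 the difference was 0.56 (adjusted p = 0.0114), and without any 1 of the other 5 arrays the adjusted p was 0.0502 to 0.112. Adding the actin ratio to the fit gave a larger difference of 0.65 with a larger SE of 0.16 (adjusted p = 0.0589).

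HERC5, the ligase, had signals of 503, 379.7 and 433 in overexpression cells, against 264, 249 and 312 in negative cells. All 3 overexpression arrays were above the negative ones. HERC5 rose by 0.67 on the log2 scale (SE 0.15, limma adjusted p = 0.0427, n = 3 per group), or 1.59-fold. It was the call closest to the threshold, and it passed under 6 of 16 alternatives. Its adjusted p was 0.086 to 0.145 without any 1 array other than negative replicate 3, and 0.0663 to 0.0718 after quantile normalization, after cyclic loess or without the filter on dim probe sets. In the fit that also held the actin ratio the difference was 0.84 and its SE 0.28 (adjusted p = 0.147).

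HERC6, the neighbour of HERC5 on chromosome 4 in the RefSeq annotation, had signals of 1295, 1116 and 1201 with CT45A1 and 1024, 1002 and 947 without it at its brighter probe set. The arrays did not overlap, but the difference of 0.28 (SE 0.09) did not pass (limma adjusted p = 0.120, n = 3 per group) and passed under none of 17 alternatives. The other HERC6 probe set was below the array median on all 6 arrays, at 39.6, 1.91 and 36.5 with CT45A1 and 29.2, 46.6 and 6.54 without it, and was not tested. The log2 ratio of HERC5 to HERC6 within an array shifted by 0.39 with CT45A1. An exact two-sided permutation test of that shift gave p = 0.1, the smallest that 3 against 3 arrays allow, and an adjusted p of 0.175 over 7 such ratios.

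USP18, the enzyme that removes ISG15, had signals of 63.1, 35.5 and 68.2 in overexpression cells, against 78.3, 44.6 and 39.4 in negative cells. The groups overlapped, and only 1 array, negative replicate 1, exceeded its array median. USP18 was therefore left untested by the filter. Fitted without the filter, its log2 difference was 0.049 (SE 0.48, limma adjusted p = 0.981). A dim signal at 1 probe set bounds its level poorly, so no fold is given.

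CMPK2, the nucleotide kinase, had signals of 632, 387 and 401 in overexpression cells, against 203, 286 and 195 in negative cells. It had the largest difference of the 12 probe sets and rose by 1.04 on the log2 scale (SE 0.22, limma adjusted p = 0.0328), a 2.05-fold change. Its means were 8.85 ± 0.40 with CT45A1 and 7.81 ± 0.30 without it (SD, n = 3 each), the widest spread of the 5 called probe sets. Overexpression replicate 1 stood above the other 2 overexpression arrays, and without it the difference was 0.81 (adjusted p = 0.103). Of the other 5 arrays, CMPK2 still passed without negative replicate 2, and without any 1 of the remaining 4 its adjusted p was 0.0561 to 0.109. With the actin ratio as a covariate it was 0.40 (adjusted p = 0.570). RSAD2, which encodes the antiviral enzyme viperin and is the neighbour of CMPK2 on chromosome 2, was too dim to test, at 33.03, 88.1 and 35.7 with CT45A1 and 29.5, 44.1 and 37.4 without it.

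Of SAMD9L and SAMD9, neighbours on chromosome 7, only SAMD9L had a probe set among the calls. SAMD9L had signals of 659.8, 567 and 561 in overexpression cells, against 381, 381 and 349 in negative cells, at its brightest probe set. That probe set rose by 0.69 on the log2 scale (SE 0.12, limma adjusted p = 0.0155, n = 3 per group), or 1.61-fold. It passed under 12 of 17 alternatives, and its adjusted p was 0.0697 without overexpression replicate 1, 0.0649 without overexpression replicate 2 and 0.05002 without negative replicate 1. Adding the actin ratio gave 0.47 (adjusted p = 0.255). The other 2 probe sets of SAMD9L gave 328, 309 and 288 with CT45A1 against 212, 229 and 203 without it, and 263, 198 and 159 against 122, 151 and 128. They differed by 0.52 (adjusted p = 0.0769) and 0.60 (adjusted p = 0.170), so all 3 probe sets of SAMD9L were apart between the groups while 1 passed.

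SAMD9 had signals of 3521, 3874 and 3814 in overexpression cells, against 2753, 2649 and 3477 in negative cells, at its brighter probe set. The lowest overexpression array lay just above negative replicate 3, and the difference of 0.35 (SE 0.10) did not pass (limma adjusted p = 0.0958). Without negative replicate 3 it was 0.47 (adjusted p = 0.0138). Adding the actin ratio as a covariate gave 0.73 (adjusted p = 0.0124). The second probe set gave 826, 809 and 725 against 625, 611 and 773, where the groups overlapped, and differed by 0.24 (adjusted p = 0.276). The log2 ratio of SAMD9L to SAMD9 at their brightest probe sets shifted by 0.34 with CT45A1 (exact two-sided permutation p = 0.1, adjusted p = 0.175, n = 3 per group).

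ISG20, the exonuclease, was read by 2 probe sets, and neither passed. One gave 494, 374 and 488 in overexpression cells, against 309, 319 and 223 in negative cells, a difference of 0.68 (SE 0.17) that did not pass (limma adjusted p = 0.0635). The brighter one gave 582, 477 and 457 against 423, 447 and 391, a difference of 0.26 (SE 0.13, adjusted p = 0.278). Both were apart between the groups. The ratio of the brighter to the dimmer probe set was lower on each overexpression array than on each negative array, by 0.42 on the log2 scale (exact two-sided permutation p = 0.1, adjusted p = 0.175). In the fit that also held the actin ratio, the brighter probe set differed by -0.043.

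**Figure D3:**
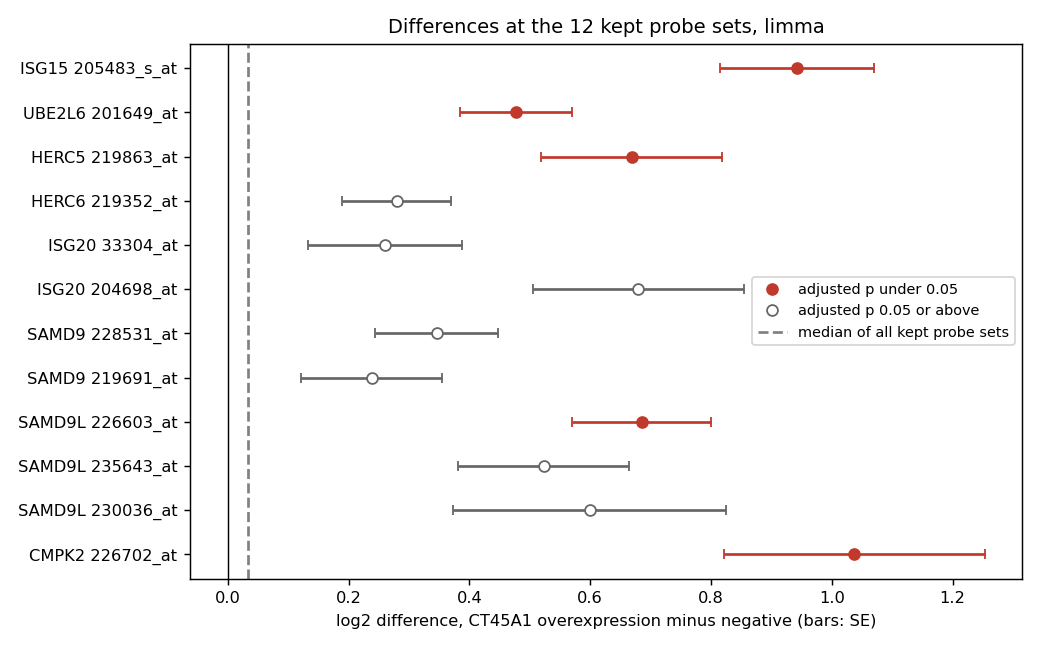
Log2 difference, CT45A1 overexpression minus negative (horizontal axis), at the 12 probe sets tested, with bars for limma's standard errors, filled red points for an adjusted p under 0.05 and a dashed line at the median of all probe sets tested. The differences run from 0.24 at SAMD9 to 1.04 at CMPK2.

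The members were also compared over the single arrays. Overexpression replicate 1 gave the highest signal at 11 of the 12 probe sets tested, SAMD9's brighter one being the exception. The mean log2 signal of the 12 was 9.69, 9.43 and 9.43 in overexpression cells (replicates 1, 2 and 3) and 8.93, 8.998 and 8.93 in negative cells, so the groups did not overlap. CT45 signal was highest on overexpression replicate 2 at the brighter CT45 probe set and on replicate 3 at the other. The 5 genes outside the list closest to ISG15 in log2 signal relative to the negative mean, by Euclidean distance over the 6 arrays, were P2RX4, DNAJC12, H2BC3, IRF9 and DLEU2, at distances of 0.295 to 0.412. CMPK2 at 0.437 and SAMD9L at 0.489 were the closest members, and SAMD9 at 1.24 the farthest. These distances describe the arrays and carry no test.

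None of the tested enzymes and modifiers related to the ISG15 relay passed, where 1.94% of all genes rose and 1.89% fell. In lists of this size a count of 0 is near those shares and does not set these genes apart. Of 15 partners and relatives tested, among them the ligases ARIH1 and TRIM25 and the HERC genes HERC1, HERC2 and HERC4, 0 passed in limma and 1 had an unadjusted p under 0.05, with a median difference of 0.026 on the log2 scale against 0.0085 over all genes tested. The smallest unadjusted p values were those of USP14, a proteasome-bound deubiquitinase, and ARIH1, whose differences were -0.14 and -0.18 (limma adjusted p = 0.223 and 0.255). Of 15 genes of ubiquitin and other ubiquitin-like systems 0 passed and 4 had an unadjusted p under 0.05, with a median of -0.044. The smallest were FAU, a ubiquitin-like protein fused to a ribosomal protein, at -0.22 (adjusted p = 0.0579), and UBA1, the main ubiquitin activating enzyme, at 0.26 (adjusted p = 0.0977). Of 19 nucleotide kinases, related enzymes and exonucleases, the nucleoside diphosphate kinase NME1 fell by 0.25 (adjusted p = 0.0475) and none rose, with a median of -0.099. CMPK1, the cytosolic counterpart of CMPK2, differed by -0.11 (adjusted p = 0.324).

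Among the genes upstream, 0 of 12 interferon ligands with a probe set passed the filter on dim signals. Of 19 interferon receptor, JAK-STAT and IRF genes tested, 2 rose, 1 fell and 16 did not pass, with a median of 0.067. IRF9, a DNA-binding interferon regulatory factor, rose by 0.73 (SE 0.13, limma adjusted p = 0.0191), and the kinase TYK2 rose by 0.70 (SE 0.11, adjusted p = 0.0111). IRF2, mostly a repressor of interferon-induced genes, fell by 0.49 (SE 0.11, adjusted p = 0.0401). Of 32 interferon-stimulated effectors outside the member list, 20 rose, 0 fell and 12 did not pass, where 1.94% of all genes rose and 1.89% fell. Their median was 0.54, and the members' median was 0.56. This list too was chosen with earlier results of these data known. The largest were IFI44L, IFI27, IFIT1 and MX1, at 2.13, 1.47, 1.46 and 1.30. The 20 calls became 8 with the actin ratio, which separates the groups, in the fit, 1 without the variance trend and 9 to 18 without 1 array. In the same settings the 892 calls among all 27618 probe sets became 702, 4 and 156 to 1152.

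**Figure D4:**
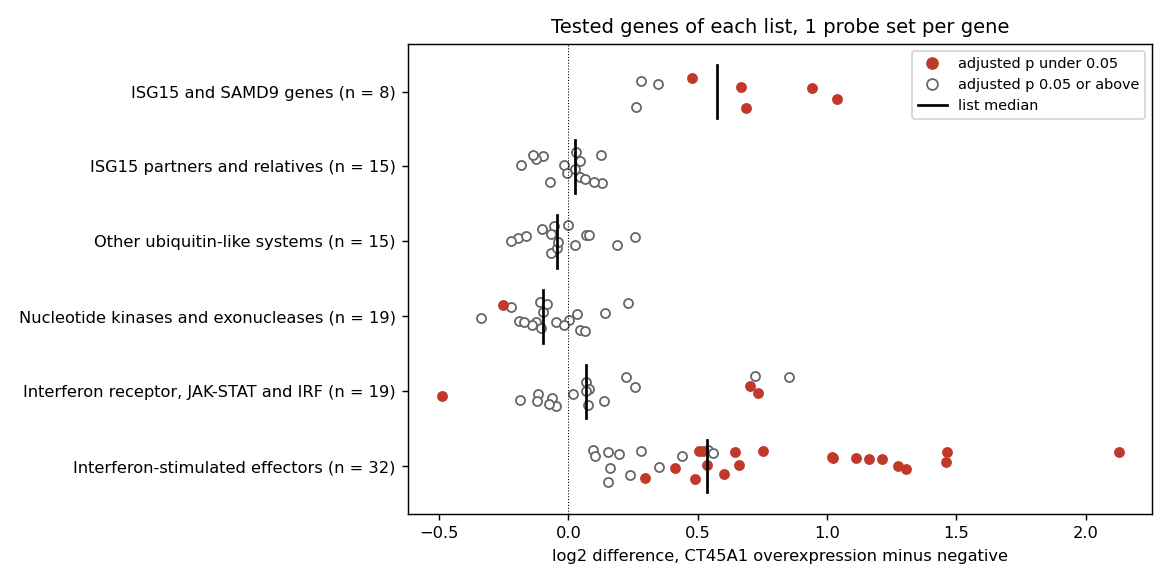
Log2 difference, CT45A1 overexpression minus negative (horizontal axis), of the tested genes of each list at 1 probe set per gene, filled red where the adjusted p was under 0.05, with a black line at each list's median. The ISG15 and SAMD9 genes and the interferon-stimulated effectors lie above 0, and the other 4 lists drawn hold genes on both sides of 0.

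Few of the genes beside the measured members on the chromosome, other than members themselves, could be tested, and none of those passed. Over all genes 1.94% rose and 1.89% fell, so no call among so few genes is near those shares. The neighbours of ISG15, HES4 and AGRN, differed by 0.099 and 0.11 on the log2 scale (limma adjusted p = 0.710 and 0.686). PPM1K beside HERC6, CDK6 beside SAMD9 and AEN beside ISG20 differed by 0.097, 0.097 and 0.064 (adjusted p = 0.590, 0.593 and 0.876).

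**Figure D5:**
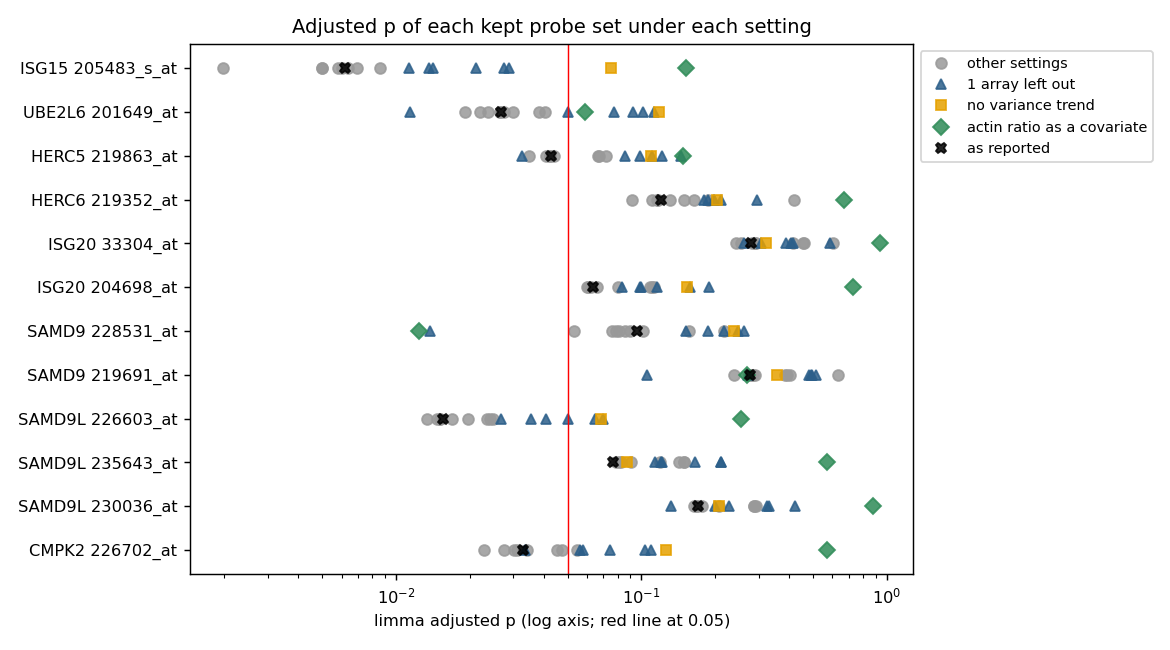
Limma adjusted p (horizontal log axis, red line at 0.05) of the 12 probe sets under each setting, with black crosses for the values as reported, blue triangles for 1 array left out, yellow squares for no variance trend, green diamonds for the actin ratio as a covariate and grey circles for the rest. ISG15 stays left of the line with each array left out and crosses it with no variance trend (0.0754) and with the actin ratio (0.151). HERC5, UBE2L6, CMPK2 and the brightest SAMD9L probe set cross it in these and in further settings.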

How the data were processed

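Expression was measured on 6 arrays of NCI-H292 cells, 3 per group, with groups and replicate numbers taken from the sample titles. The deposited table gives 1 intensity (MAS5 signal, linear scale) per array for 54675 probe sets. Per the submitters' processing notes, the authors used MAS5 and affy; versions and a genome build are not given in the sources used here. On every array the 2% trimmed mean was 500.1. Detection calls were not used. Gene names come from the platform's annotation, updated by Entrez identifier to RefSeq symbols (GRCh38.p14). Of the 54613 probe sets other than controls, 41091 had 1 symbol, 1801 several and 11721 none. No 2 arrays held identical values.

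Signals were log2-transformed with no offset and the 62 control probe sets dropped. A probe set entered the tests if at least 3 of the 6 arrays exceeded their median there, which 27618 did. Groups were compared by limma (lmFit, then eBayes with a variance trend), two-sided, with Benjamini-Hochberg adjustment. Values per gene are those of its brightest tested probe set by mean log2 signal, adjusted over 11895 genes. The number of arrays limits the precision. Named genes were all members, up to 4 called genes of each further list with the largest differences or up to 2 with the smallest p where none was called, and the 5 genes nearest to ISG15. RSAD2, CMPK1, HERC1, HERC2, HERC4, TRIM25 and chromosomal neighbours were named after their values were seen. The members and lists were chosen with earlier results of these data known. Promoter sequences are RefSeq's, and matched 8 of the 10 members. Alternatives were 3 normalizations, 2 filters, an offset of 32, 2 variance models, the replicate number as a block, the actin ratio as a covariate, no _x_at or _s_at probe sets and each array left out. The tools were limma 3.58.1 in R 4.3.3, and pandas 2.3.3 and matplotlib 3.10.9 in Python 3.11.15.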

Additional observations from a re-analysis of the deposited data

How the results depend on the processing

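The 12 tested probe sets kept a difference above 0 in all alternatives except the brighter ISG20 probe set, which differed by -0.043 with the actin ratio as a covariate (limma adjusted p = 0.941). The 5 called member probe sets became 3 without a filter on dim probe sets or with a filter at the 75th percentile, where 7 were tested, 1 with the actin ratio as a covariate and 0 without the variance trend, where 10 of 12 still had an unadjusted p under 0.05. The one called with the actin ratio was SAMD9, which is not among the 5. The 5 called genes became 3 with the filter at the 75th percentile, 2 with the actin ratio (SAMD9 and UBE2L6) and 0 without the variance trend. Without 1 array, 1 to 5 probe sets and 1 to 5 genes passed. Only ISG15 passed without overexpression replicate 1 or overexpression replicate 2. The median of the members' differences was 0.346 with the filter at the 75th percentile, where only 7 of the 12 remained, and 0.459 to 0.595 without 1 array. The 892 probe sets called over the whole array became 2975 after centring each array on its median (387 upward), 486 without a filter, 446 with _x_at and _s_at probe sets left out, 4 without the variance trend and 156 to 1152 without 1 array. The 20 effectors that rose became 8 with the actin ratio, 1 without the variance trend and 9 to 18 without 1 array, alternatives added for that list after the data were seen. The cause of these changes was not tested beyond the fewer probe sets or arrays that some alternatives use. After centring on the median the members' median was 0.416. With the replicate block 5 member probe sets and 5 genes passed, and over all probe sets 1189. Deviations of same-numbered arrays correlated by -0.011, -0.0068 and 0.10. With 3 arrays per group, these values cannot tell whether equal numbers mark a shared culture or day.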
